A study of Rattus norvegicus with 15 samples.

Results

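The respiratory chain genes of rat aortic smooth muscle cells (SMC) were taken by name from a TPM table of 32623 gene entries. Names had to begin with Ndufa, Ndufb, Ndufc, Ndufs, Ndufv, Sdha to Sdhd, Uqcr, Cox4 to Cox8, Atp5, Mt-nd, Mt-co, Mt-cyb or Mt-atp. The rule matched 115 names, of which 6 carried a numeric suffix and were left out. A further 10 of the remaining 109 did not reach 1 TPM in 3 libraries, which left 99 members among 12207 genes tested. They comprised 86 nuclear-encoded genes (73 subunits and 13 assembly or accessory factors that share the name stems) and the 13 protein genes of mitochondrial DNA. Just outside the threshold stood Cox7a1, with 0.850 TPM in its third-highest library, and just inside stood Cox6b2, with 1.04 TPM.

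RNA-seq libraries were made from cultured SMC in 4 groups. Control SMC (4 libraries, cell line label WT, untreated) were compared with a line carrying Myocd-LSD1 (4 libraries, untreated), a line carrying Myocd-LSD1NF (4 libraries, untreated) and WT SMC given PDGF-BB (3 libraries). The Myocd-LSD1 protein joins myocardin, a coactivator that switches on contractile genes, to the histone demethylase LSD1, and per the series text the SMC signature of H3K4me2 was demethylated by it. The meaning of NF was not given in the sources used here, and neither was the number of clones in a line, so an effect of the protein and a difference between lines cannot be told apart. Every group had grown with serum and was starved of serum and insulin for 72 h. The PDGF-BB group received 30 ng/ml human recombinant PDGF-BB, a mitogen of SMC, for the last 24 h, after 48 h of starvation. Whether the libraries of a group stem from separate cultures is not said in the labels, and the p-values below therefore rest on a spread that may be technical.

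The respiratory chain passes electrons from NADH and succinate to oxygen and uses the energy to pump protons across the inner mitochondrial membrane. Complex I takes electrons from NADH, complex II takes them from succinate, complex III passes them to cytochrome c, and complex IV hands them to oxygen. Complex V, the ATP synthase, lets the protons flow back and makes ATP. Most subunits are encoded in the nucleus and imported, while a few hydrophobic core subunits of every complex except complex II are made from mitochondrial DNA, which is transcribed as long precursors from both strands. In SMC, mitochondria also buffer calcium and release reactive oxygen, besides supplying ATP for contraction.

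The nuclear genes must be expressed in step with the mitochondrial ones, and their promoters are known for sites of NRF-1, of the ETS family factor GABP, of YY1 and of the estrogen-related receptors (ERR). RefSeq promoters of the GRCr8 build, running from 250 bases before to 50 bases after the start of the gene, were matched for 76 of the 86 nuclear members. The following 6 belong to called members of the comparisons below. They were picked by hand after the calls were known and do not represent the 76. Ndufb9 had no matched promoter and could not be printed. The 6 windows differ among genes of the same pathway. Capitals mark a match on either strand to an NRF-1 core (GCGCA and GCGC with any base between them) or to a YY1 core (AAGATGGCG). Each is printed 5′ to 3′ on the strand of the gene.
Atp5c1: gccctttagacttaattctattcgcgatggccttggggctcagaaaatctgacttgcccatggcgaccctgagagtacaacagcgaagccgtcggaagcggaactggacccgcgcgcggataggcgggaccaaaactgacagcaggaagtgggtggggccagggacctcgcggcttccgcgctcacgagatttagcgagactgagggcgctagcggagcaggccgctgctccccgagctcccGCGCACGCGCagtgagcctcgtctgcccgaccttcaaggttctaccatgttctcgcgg
Ndufa4: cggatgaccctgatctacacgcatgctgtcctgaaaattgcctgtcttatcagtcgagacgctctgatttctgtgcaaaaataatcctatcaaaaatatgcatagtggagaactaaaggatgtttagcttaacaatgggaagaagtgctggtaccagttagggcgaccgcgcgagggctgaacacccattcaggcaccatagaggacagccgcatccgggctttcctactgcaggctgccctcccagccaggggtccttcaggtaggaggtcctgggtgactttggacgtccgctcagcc
Ndufa11: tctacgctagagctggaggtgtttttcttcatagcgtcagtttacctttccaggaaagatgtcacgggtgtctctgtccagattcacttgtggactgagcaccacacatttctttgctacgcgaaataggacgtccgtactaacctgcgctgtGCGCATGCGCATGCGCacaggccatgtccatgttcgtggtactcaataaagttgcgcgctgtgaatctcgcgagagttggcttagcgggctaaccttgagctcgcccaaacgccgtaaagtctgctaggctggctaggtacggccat
Ndufa12: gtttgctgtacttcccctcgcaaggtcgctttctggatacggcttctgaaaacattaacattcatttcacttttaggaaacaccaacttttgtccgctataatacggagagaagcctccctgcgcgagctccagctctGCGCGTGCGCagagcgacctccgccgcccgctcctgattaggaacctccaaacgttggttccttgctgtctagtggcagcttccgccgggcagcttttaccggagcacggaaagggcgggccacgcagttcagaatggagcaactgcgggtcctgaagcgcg
Uqcrc1: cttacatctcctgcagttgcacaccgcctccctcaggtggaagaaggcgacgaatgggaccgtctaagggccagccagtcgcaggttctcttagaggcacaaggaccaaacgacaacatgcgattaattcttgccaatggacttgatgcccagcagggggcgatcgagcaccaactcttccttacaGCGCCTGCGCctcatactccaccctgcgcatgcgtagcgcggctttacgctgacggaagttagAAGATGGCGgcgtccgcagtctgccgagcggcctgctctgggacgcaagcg
Cox7a2l: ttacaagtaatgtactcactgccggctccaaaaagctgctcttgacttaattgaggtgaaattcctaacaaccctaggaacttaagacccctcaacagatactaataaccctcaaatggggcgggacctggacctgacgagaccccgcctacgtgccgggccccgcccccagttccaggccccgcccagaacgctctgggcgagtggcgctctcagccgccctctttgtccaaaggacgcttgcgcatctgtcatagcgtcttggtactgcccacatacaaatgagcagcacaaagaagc
The window of Atp5c1 (RefSeq name Atp5f1c) lies at chr17:73333435-73333734 on the plus strand, that of Ndufa4 at chr4:40975510-40975809 on the minus strand and that of Ndufa11 at chr9:1637364-1637663 on the plus strand. The window of Ndufa12 lies at chr7:30658066-30658365 on the plus strand, that of Uqcrc1 at chr8:118467973-118468272 on the plus strand and that of Cox7a2l at chr6:16936324-16936623 on the plus strand. The NRF-1 core begins 8 bases before the start in Atp5c1, 112 bases before it in Ndufa12 and 64 bases before it in Uqcrc1. Ndufa11 holds 2 overlapping matches, at 97 and 91 bases before the start, and Uqcrc1 has a YY1 core 1 base before the start. The windows of Ndufa4 and Cox7a2l hold none of the motifs searched, which says only that these letters are not in these 300 bases.

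Across the 76 member promoters, the NRF-1 core was found in 16 (21.1%), against 4.26% of 33469 rat promoters of the same length and 5.67% of 21851 promoters of protein-coding genes. The ETS core CCGGAAG was found in 23 (30.3%), against 8.75% of all promoters and 10.7% of coding ones. The YY1 core was found in 9 (11.8%), against 1.73% and 2.07%. An ERR core (TCAAGGTCA) was found in 2 (2.63%), against 0.433% and 0.366%. A TATA core (TATAAA) was found in 4 (5.26%), against 14.2% of all promoters. Both strands were searched, and no member promoter had matches of different motifs that overlapped. Base composition moved with these shares, since the median window held 20.5 CpG dinucleotides in members and 7 in all promoters. Among the 17 promoters of members that fell in the first comparison below, 4 (23.5%) held an NRF-1 core, 4 an ETS core, 4 a TATA core and 1 each a YY1 and an ERR core (5.88%). All 4 member promoters with a TATA core were thus among these 17, a pattern seen only after the calls were known. The calls of these 4 genes were lost in 6 to 13 of the 26 alternative settings described below. None of them was called without Myocd-LSD1 libraries 2 and 4. A link between motif and fall was not tested.

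All levels below are TPM, which correct for transcript length, so that levels of different genes can be set side by side. Every library adds up to 1e+06 TPM, and the sequencing depth behind the values is unknown. In control SMC the mitochondrially encoded genes ran from 130.4 ± 14.8 TPM (SD, n = 4) for Mt-nd6 to 15284 ± 2756 TPM for Mt-co1, the catalytic subunit of complex IV. The median of the 13 was 3811 TPM. Apart from Mt-nd6, which lay below many nuclear members, each of them was above every nuclear member. Mt-nd6 is the only protein gene on the light strand of mitochondrial DNA, and its mRNA is known in human cells to carry little or no poly(A) tail, while the libraries here were poly(A) selected. Mt-atp8 and Mt-atp6 overlap, as do Mt-nd4l and Mt-nd4, so the split of reads within each pair is uncertain.

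Nuclear members were lower on the whole. Their median control level was 106 TPM over 34 complex I subunits, 113 TPM over 4 complex II subunits, 186 TPM over 7 complex III subunits, 285 TPM over 13 complex IV subunits and 263 TPM over 15 complex V subunits. The highest were Ndufb9 in complex I (187 ± 16.7 TPM), Sdhc, a membrane anchor of complex II (275 ± 32.2), and Uqcrh, the hinge protein of complex III (253 ± 38.8). Cox4i1 of complex IV stood at 736 ± 69.5 TPM and Atp5b, the catalytic beta subunit of ATP synthase, at 979 ± 18.6 TPM. Levels differed widely within a complex, as Atp5c1, the gamma subunit that turns inside the head formed by Atp5a1 and Atp5b, had 53.0 ± 2.84 TPM. Among the factors the highest was Sdhaf2, which helps attach the flavin of Sdha, with 60.2 ± 3.87 TPM.

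**Figure D1:**
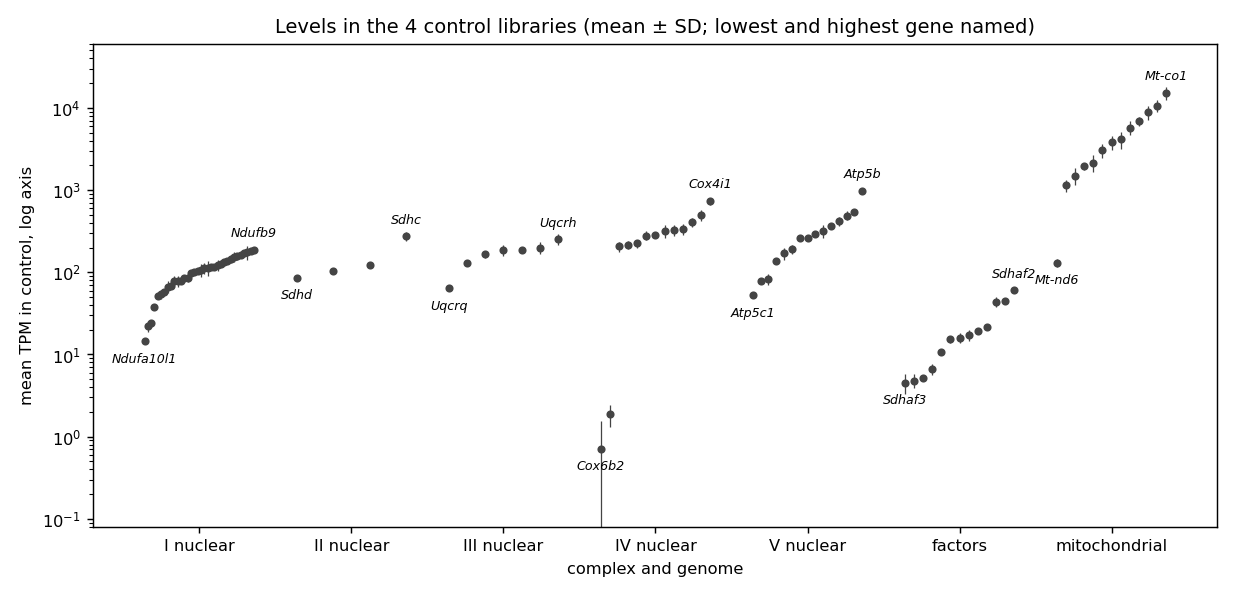
Mean level of the 99 members in the 4 control libraries (TPM, log axis), by complex and genome, with bars of 1 SD; the lowest and the highest gene of each set are named and the lower bar of Cox6b2 runs off the axis. Mitochondrially encoded genes other than Mt-nd6 (130.4 TPM) stand highest, up to Mt-co1 at 15284 TPM, and Cox6b2 of complex IV is the lowest member at 0.715 TPM.

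Several subunits exist as tissue isoforms, and several forms known from heart and skeletal muscle had low values in every group. Cox6a2 never exceeded 1.26% of the level of Cox6a1, Cox7a1 never exceeded 0.539% of Cox7a2, and Cox4i2, the lung and hypoxia form, never exceeded 0.0519% of Cox4i1. Cox8b was listed at 0 throughout, from which no level is read, beside Cox8a at 336 ± 47.7 TPM in control, and Ndufa4l2 reached at most 0.363% of Ndufa4. The ATP synthase c ring is made from 3 genes that encode the same mature protein, and in every library Atp5g2 gave 40.1% to 52.3% of their summed TPM, Atp5g3 30.1% to 40.7% and Atp5g1 16.3% to 20.1%. Cox5a and Cox5b, which are different subunits, stood at 285 ± 10.3 and 216 ± 24.6 TPM in control.

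The other members that failed the threshold were Ndufa13, at no more than 0.460 TPM, and Ndufs6, Ndufb4l1, Cox7b2, Cox8c and Cox6c-ps1, which were listed at 0 in all 15 libraries. Cycs, somatic cytochrome c, was also listed at 0 throughout. Ndufs6, Ndufa13 and Cycs are used by every cell, so these entries may be failed estimates and no level is read from them. Ndufa10l1 may share reads with Ndufa10. Of the entries with a number suffix, Cox6b1 had levels of 207 ± 31.7 and 44.2 ± 7.08 TPM in control and Uqcrb 68.4 ± 7.82 and 58.4 ± 9.31 TPM, and they were not tested as members.

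The labelled cell type was checked against its markers. The summed TPM of 9 smooth muscle markers was 19290 to 23886 in control, 10791 to 22254 in Myocd-LSD1NF, 6127 to 7973 in PDGF-BB and 3911 to 6809 in Myocd-LSD1. Within that list Des went the other way, with 0.470 to 1.67 TPM in control and 3.71 to 7.08 in Myocd-LSD1. The entry Myocd had 0.150 to 0.560 TPM in Myocd-LSD1 and 26.2 to 30.6 in control. It had 18.3 to 49.6 TPM in Myocd-LSD1NF and 14.8 to 23.1 in PDGF-BB. Of the markers of other types, Cdh5, Kdr, Vwf, Ptprc, Myh6 and Ucp1 never exceeded 0.0300 TPM. Ppargc1a, which drives mitochondrial biogenesis in brown fat and muscle, reached at most 0.0300 TPM. Other genes of the same lists were expressed. Tnnt2 of the cardiac list had 7.13 to 14.6 TPM in control, and the endothelial Erg reached 6.29 TPM there. Lum of the fibroblast list reached 31.3 TPM in control, and Cidea of the brown adipocyte list 11.7 TPM in PDGF-BB. Libraries also differed within groups. Myocd-LSD1 libraries 2 and 4 correlated at 0.987 with each other and at 0.961 to 0.978 with libraries 1 and 3. Myocd-LSD1NF 4 correlated at 0.963 to 0.967 with the rest of its group, against 0.983 to 0.987 among the other three, and had 3979 TPM of Acta2 where they had 10729 to 11982.

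The 13 mitochondrial genes together made up 7.88%, 6.34%, 5.11% and 6.82% of all TPM in control libraries 1 to 4. They made up 5.17%, 4.91%, 4.58% and 5.92% in Myocd-LSD1 and 7.23%, 5.27%, 5.21% and 7.11% in Myocd-LSD1NF. The PDGF-BB libraries held 6.79%, 10.7% and 5.31%. Myocd-LSD1 libraries were therefore at the low end, overlapping both other untreated groups, and PDGF-BB 2 stood apart from all others. That library had the highest TPM of the 15 for each of the 13 mitochondrial genes.

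The 86 nuclear members made up 1.11% to 1.53% of TPM in any library. Their sum was 14052 ± 1168 TPM in control, 12194 ± 1382 in Myocd-LSD1, 13602 ± 1020.3 in Myocd-LSD1NF and 14688 ± 624 in PDGF-BB. In the Myocd-LSD1 line the libraries fell in pairs, with 12533 and 14010.2 TPM in libraries 1 and 3 and 11128 and 11106 TPM in libraries 2 and 4. For 62 of the 86 genes both of libraries 2 and 4 were below both of libraries 1 and 3, and for 2 genes they were above. In a bulk sample, fewer cells of a kind and less RNA per cell cannot be told apart.

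**Figure D2:**
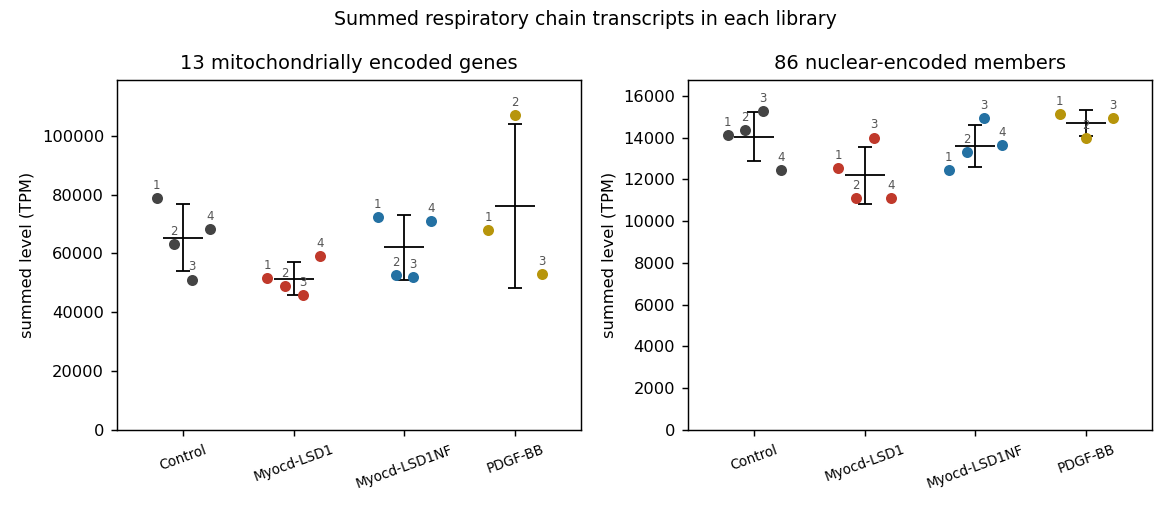
Summed level (TPM) of the mitochondrially encoded genes (left) and of the nuclear members (right) in each library, with the library number over each point and the mean ± SD of each group as black bars; both axes start at 0. PDGF-BB 2 holds 107235 TPM of mitochondrial mRNA, above every other library, and Myocd-LSD1 libraries 2 and 4 hold the smallest nuclear sums, 11128 and 11106 TPM.

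The first comparison asked how the line made to remove H3K4me2 differed from control SMC. Nuclear and mitochondrial respiratory chain mRNAs tended to be lower in the Myocd-LSD1 line, by a small amount. Of the 99 members, 20 fell, 2 rose and 77 did not pass (limma on log2(TPM + 1), adjusted p under 0.05 over all genes tested). Across all genes 32.2% passed, 15.4% lower and 16.9% higher, while of the members 22.2% passed, 20.2% lower and 2.02% higher. The log2 fold change was below 0 in 88 of 99 members (75 of 86 nuclear and all 13 mitochondrial), against 46.6% of all genes. Its median was -0.16 over nuclear and -0.34 over mitochondrial members, against 0.03 over all genes. The groups did not overlap for 19 members (19.2%, against 30.5% of all genes).

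Complex I held the widest range. Of its 34 nuclear subunits 9 fell and 2 rose, with a median log2 fold change of -0.12. Ndufb9, an accessory subunit of the membrane arm, had 198, 198, 187 and 163 TPM in control and 124, 109, 146 and 116 TPM in Myocd-LSD1. Every Myocd-LSD1 library lay below every control library. The log2 fold change was -0.59 ± 0.10 (SE, adjusted p = 0.000401, lower in 4 of 4 libraries). Ndufb6, of the same arm, had 145, 153, 182 and 136 TPM in control and 103, 77.1, 119.8 and 82.5 TPM in Myocd-LSD1, again without overlap (log2 fold change -0.70 ± 0.15, adjusted p = 0.00226). Both members of the membrane arm were lowest in libraries 2 and 4. Ndufb10, named because its call held under each alternative tried, fell by 0.39 ± 0.08 (adjusted p = 0.00233).

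The 2 members that rose were also complex I accessory subunits, and their promoters are printed above. Ndufa11, a membrane-embedded subunit, had 132, 147, 142 and 123 TPM in control and 178, 175, 191 and 188 TPM in Myocd-LSD1. No library of the line was as low as the highest control (log2 fold change 0.43 ± 0.12, adjusted p = 0.0125). Ndufa12, which sits on the NADH-oxidising arm, had 51.3, 55.0, 56.7 and 45.5 TPM in control and 66.1, 58.9, 75.2 and 68.4 TPM in Myocd-LSD1. These groups did not overlap either, with a log2 fold change of 0.36 ± 0.12 (adjusted p = 0.0316). The 7 nuclear core subunits, which carry the flavin and the iron-sulfur clusters, had 2 members that fell, Ndufv1 (-0.35 ± 0.11) and Ndufv2 (-0.36 ± 0.09), and a median of -0.15. Ndufa12 no longer passed without control 1 or 4 or Myocd-LSD1 1, 3 or 4, nor with median-of-ratios scaling, at adjusted p up to 0.0905. Ndufv1 did not pass without control 1 or 2 or Myocd-LSD1 2 or 4, at adjusted p up to 0.0772.

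Complexes II to V each had members that fell and none that rose. In complex II, Sdhc had 279, 305, 285 and 229 TPM in control and 216, 192, 205 and 197 TPM in Myocd-LSD1. It fell without overlap (log2 fold change -0.43 ± 0.10, adjusted p = 0.00273), while Sdha, Sdhb and Sdhd did not pass. In complex III, 2 of 7 nuclear members fell. Uqcrh had 261, 242, 301 and 208 TPM in control and 174, 156, 241 and 129 TPM in Myocd-LSD1, where library 3 overlapped the controls (log2 fold change -0.55 ± 0.16, adjusted p = 0.0182). Uqcr10, a small subunit, had a log2 fold change of -0.37 ± 0.11. Without control 3 or Myocd-LSD1 2 or 4 Uqcrh did not pass (adjusted p up to 0.0624), and Uqcr10 did not without control 1, 2 or 3 or Myocd-LSD1 4 (up to 0.0717). With only the compared groups in the fit Uqcr10 did not pass either.

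In complex IV, 3 of 13 nuclear members fell. Ndufa4, first described in complex I and now assigned to complex IV, had the largest fall of the called members. It had 363, 331, 345 and 253 TPM in control and 205, 154, 243 and 141 TPM in Myocd-LSD1. Control and line did not overlap, although library 3 of the line (243) was close to control 4 (253), and the log2 fold change was -0.81 ± 0.15 (adjusted p = 0.000909). Cox7a2, the general form of subunit 7a, fell by 0.53 ± 0.17 (adjusted p = 0.0231), from 281, 301, 308 and 229.7 TPM to 219.7, 159.7, 266 and 147 TPM, with overlap. Cox6a1 fell by 0.48 ± 0.14 (adjusted p = 0.017). Cox4i1, the most abundant nuclear member of the complex, had a log2 fold change of -0.24 ± 0.11 and did not pass. The call of Cox7a2 was lost without control 1, 2 or 3 or Myocd-LSD1 2 or 4 (adjusted p up to 0.0776), and that of Cox6a1 without control 2 or Myocd-LSD1 2 (up to 0.0621). Cox7a2 also lost its call with only the compared groups in the fit.

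In complex V, 4 of 15 nuclear members fell, and 2 of them belonged to the central stalk that couples the proton rotor to the catalytic head. Atp5c1, the gamma subunit, had 51.9, 57.0, 50.3 and 52.7 TPM in control and 38.8, 33.3, 40.7 and 32.6 TPM in Myocd-LSD1. The separation was wide against the spread of either group (log2 fold change -0.54 ± 0.09, adjusted p = 0.000294). Atp5e, the epsilon subunit, had 263, 256, 283 and 249 TPM in control and 185, 186, 216 and 191 TPM in Myocd-LSD1 and fell by 0.43 ± 0.10 (adjusted p = 0.00451). Atp5d, the delta subunit of the same stalk, had a log2 fold change of -0.13 and did not pass (limma, adjusted p = 0.38). The stalk genes thus did not all fall. The catalytic subunits Atp5a1 and Atp5b, with log2 fold changes of 0.04 ± 0.09 and -0.13 ± 0.09, did not pass. The other called members were Atp5l (-0.41 ± 0.13), a membrane subunit, and Atp5g3 (-0.32 ± 0.12), a c ring gene. Neither held without control 1, 2 or 3 or Myocd-LSD1 2 or 4, at adjusted p up to 0.0798 and 0.148, and Atp5g3 lost its call in 15 of 26 alternatives in all, other filters and single Myocd-LSD1NF libraries left out among them. None of the 13 assembly and accessory factors passed.

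All 13 mitochondrial genes had negative log2 fold changes, from -0.16 for Mt-cox3 to -0.63 for Mt-nd6, and Mt-nd6 alone passed. These genes moved together within libraries, as control 3 held the lowest control value for 11 of them. The 13 signs are therefore not independent results. Mt-nd6 had 146, 139.8, 119 and 117 TPM in control and 84.6, 80.9, 73.8 and 97.2 TPM in Myocd-LSD1. All 4 libraries of the line were below the lowest control (log2 fold change -0.63 ± 0.22, adjusted p = 0.0429). The call was lost without any single control, without Myocd-LSD1 1, 2 or 3 and without Myocd-LSD1NF 3, at adjusted p up to 0.107. It was also lost with no filter on low genes (0.0652), with quantile normalization (0.0663) and with the replicate number as a block (adjusted p = 0.0584). As a share of mitochondrial TPM, Mt-nd6 took 0.202% ± 0.0285 (SD, n = 4) in control, 0.163% ± 0.00169 in Myocd-LSD1 and 0.220% ± 0.0289 in Myocd-LSD1NF. Mt-co1, Mt-co2 and Mt-nd3 also had no overlap between the groups and did not pass. Mt-co1 had 18713, 15144, 11966 and 15312 TPM in control and 11854, 10622, 9931 and 10983 TPM in Myocd-LSD1 (log2 fold change -0.48 ± 0.20, adjusted p = 0.0872).

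**Figure D3:**
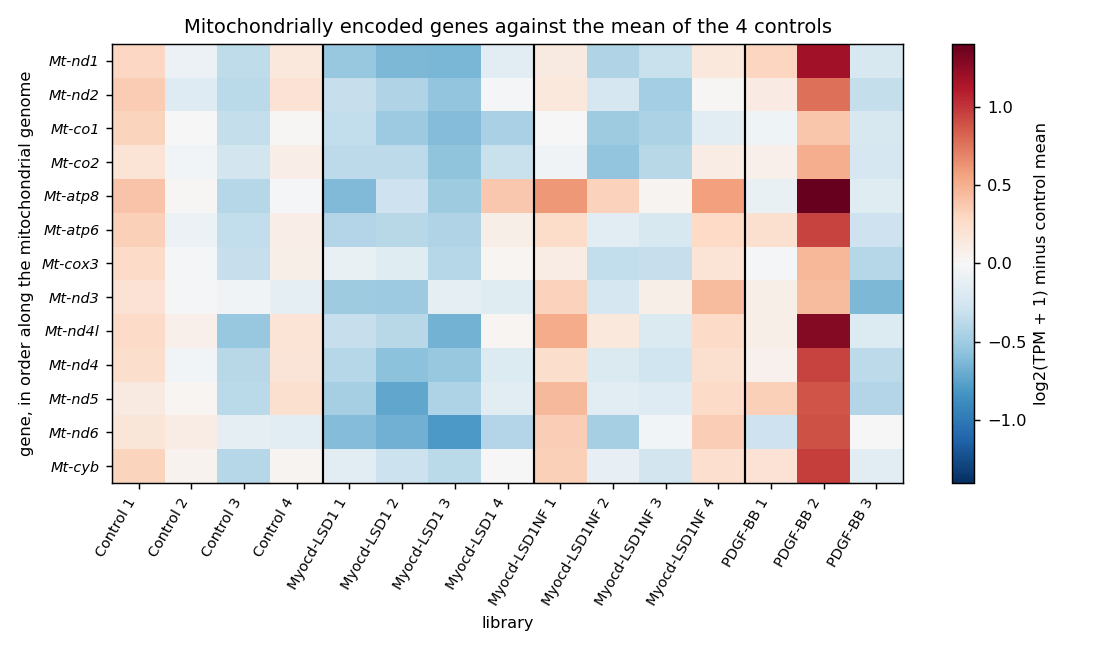
Each cell gives log2(TPM + 1) of a mitochondrially encoded gene in a library minus the mean of the 4 controls, with genes in their order along the mitochondrial genome and vertical lines between the groups; the colour scale runs from blue (lower) to red (higher). Myocd-LSD1 columns are mostly blue, and PDGF-BB 2 is red in all 13 genes.

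For the nuclear members the size of the shift depended on Myocd-LSD1 libraries 2 and 4. Without them 9 members passed (8 lower, 1 higher) and 65 of 99 were below 0, of which 52 were among the 86 nuclear members. The share of all genes below 0 was not taken in that fit. The nuclear median was -0.05, while the mitochondrial median was -0.46 with no mitochondrial gene called. Of all genes 24.4% passed without these libraries, 10.1% lower and 14.4% higher, and the all-gene median was 0.11. Ndufb9 (-0.46 ± 0.12), Ndufa4 (-0.52 ± 0.14), Atp5c1 (-0.40 ± 0.10), Ndufb6, Ndufb10, Sdhc, Atp5e and Ndufa12 were still called, and Ndufa11 kept its size and missed the threshold (0.44 ± 0.15, adjusted p = 0.0531). Cox6a2, at 0 and 0.610 TPM in the remaining libraries, also passed there. With limma array weights 50 members passed, 47 lower and 3 higher, beside 44.7% of all genes, 24.4% lower and 20.3% higher. Leaving out control 1, 2 or 3, or Myocd-LSD1 2 or 4, gave 12, 13, 14, 12 and 12 calls. Of all genes 26.6% to 28.7% passed in these fits. In all, 7 of the 22 calls held under each of 26 alternatives, namely Ndufb9, Ndufb6, Ndufb10, Ndufa4, Sdhc, Atp5c1 and Atp5e.

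The Myocd-LSD1 line was also compared with Myocd-LSD1NF. It shares its Myocd-LSD1 libraries with the comparison above. Of the 99 members 17 fell, 3 rose and 79 did not pass. Across all genes 31.8% passed, 12.7% lower and 19.1% higher, against 20.2%, 17.2% and 3.03% of members. The median log2 fold change was -0.11 over nuclear and -0.37 over mitochondrial members, against 0.07 over all genes. The groups did not overlap for 13 members (13.1%, against 27% of all genes).

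Ndufb9 had 165, 181, 189.5 and 199 TPM in Myocd-LSD1NF, above all 4 Myocd-LSD1 libraries (log2 fold change -0.57 ± 0.10, adjusted p = 0.000659). Ndufa4 had 262, 304, 290.0 and 286 TPM in Myocd-LSD1NF, also without overlap, with a log2 fold change of -0.65 ± 0.15 (adjusted p = 0.00527). Mt-nd6 had 165, 93.9, 127 and 165 TPM there, where library 2 lay within the range of the Myocd-LSD1 line (-0.67 ± 0.22, adjusted p = 0.0312). In this comparison 10 members fell that also fell against control, namely Ndufb6, Ndufb9, Ndufb10, Ndufs5, Ndufa4, Cox6a1, Sdhc, Atp5c1, Atp5e and Mt-nd6, and Ndufa11 rose in both. Against Myocd-LSD1NF the call of Ndufa11 was lost in 15 and that of Sdhc in 16 of 26 alternatives, and against control that of Ndufs5 was lost in 12.

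Some members passed here and not against control. Cox8a, the general form of subunit 8, had 457, 540.3, 516 and 353 TPM in Myocd-LSD1NF, 286, 239.6, 351 and 342 TPM in Myocd-LSD1 and 288, 386, 367 and 302 TPM in control. Its log2 fold change was -0.61 ± 0.16 against Myocd-LSD1NF (adjusted p = 0.00907) and -0.15 ± 0.16 against control. Ndufs8, a core subunit with iron-sulfur clusters, was named because its call held under each alternative, and had 132, 133, 142 and 100.1 TPM in Myocd-LSD1NF against 97.8, 80.3, 95.9 and 83.8 TPM (-0.49 ± 0.11, adjusted p = 0.00279). Ndufab1, the acyl carrier protein of mitochondria, had a log2 fold change of -0.51 ± 0.17 (adjusted p = 0.0296).

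Among the factors, Sdhaf1 and Sdhaf2, which mature complex II, fell by 0.38 ± 0.11 and 0.34 ± 0.11. Ndufaf7, a methyltransferase needed for complex I assembly, rose by 0.34 ± 0.12 (adjusted p = 0.044). Cox7a2l, which joins complexes III and IV into supercomplexes in mouse and human cells, had 235, 270.1, 264 and 302 TPM in Myocd-LSD1 and 199, 181, 252 and 215 TPM in Myocd-LSD1NF, with overlap, and rose by 0.34 ± 0.11 (adjusted p = 0.0314). Of 26 alternatives, 3 ended the call of Sdhaf1, 7 each those of Sdhaf2, Ndufab1 and Cox7a2l, 10 that of Mt-nd6 and 18 that of Ndufaf7, mostly by leaving out a library. Without Myocd-LSD1 libraries 2 and 4 only 4 members passed, Ndufb9, Ndufs8 and Cox6a2 lower and Ndufaf7 higher. Of all genes 24.6% passed there, 7.67% lower and 16.9% higher. The nuclear median was -0.02 in that fit, with 44 of 86 nuclear members below 0. The mitochondrial median was -0.46, and the median of all genes 0.15. Leaving out Myocd-LSD1 1, 2 or 4 or Myocd-LSD1NF 1 or 3 gave 13, 7, 10, 12 and 9 calls. In these fits 25.8% to 28.8% of all genes passed. With median-of-ratios scaling 28 members fell and 1 rose, and 16.7% of all genes were higher and 17.5% lower. With array weights 28 fell and 3 rose, beside 20.1% of all genes lower and 21.1% higher. With these groups alone in the fit 10 members passed, beside 23.7% of all genes.

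No member passed between Myocd-LSD1NF and control (limma), where 2.21% of all genes did, 0.475% higher and 1.74% lower. At an unadjusted p under 0.05 there were 8 members, against 1917 of all 12207 genes. The median log2 fold change was -0.08 over nuclear and 0.04 over mitochondrial members, against -0.05 over all genes, and the groups did not overlap for 4 members (4.04%, against 9.95%). The log2 fold changes ran from -0.47 for Cox6b2 to 0.47 for Cox8a (adjusted p = 0.162). Atp5c1 had 42.7, 45.1, 45.4 and 44.7 TPM in Myocd-LSD1NF, below every control (log2 fold change -0.25 ± 0.09, adjusted p = 0.186). Without Myocd-LSD1NF 4, 2 members passed, and with array weights 4 did (3 higher, 1 lower), beside 2.56% and 7.53% of all genes.

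**Figure D4:**
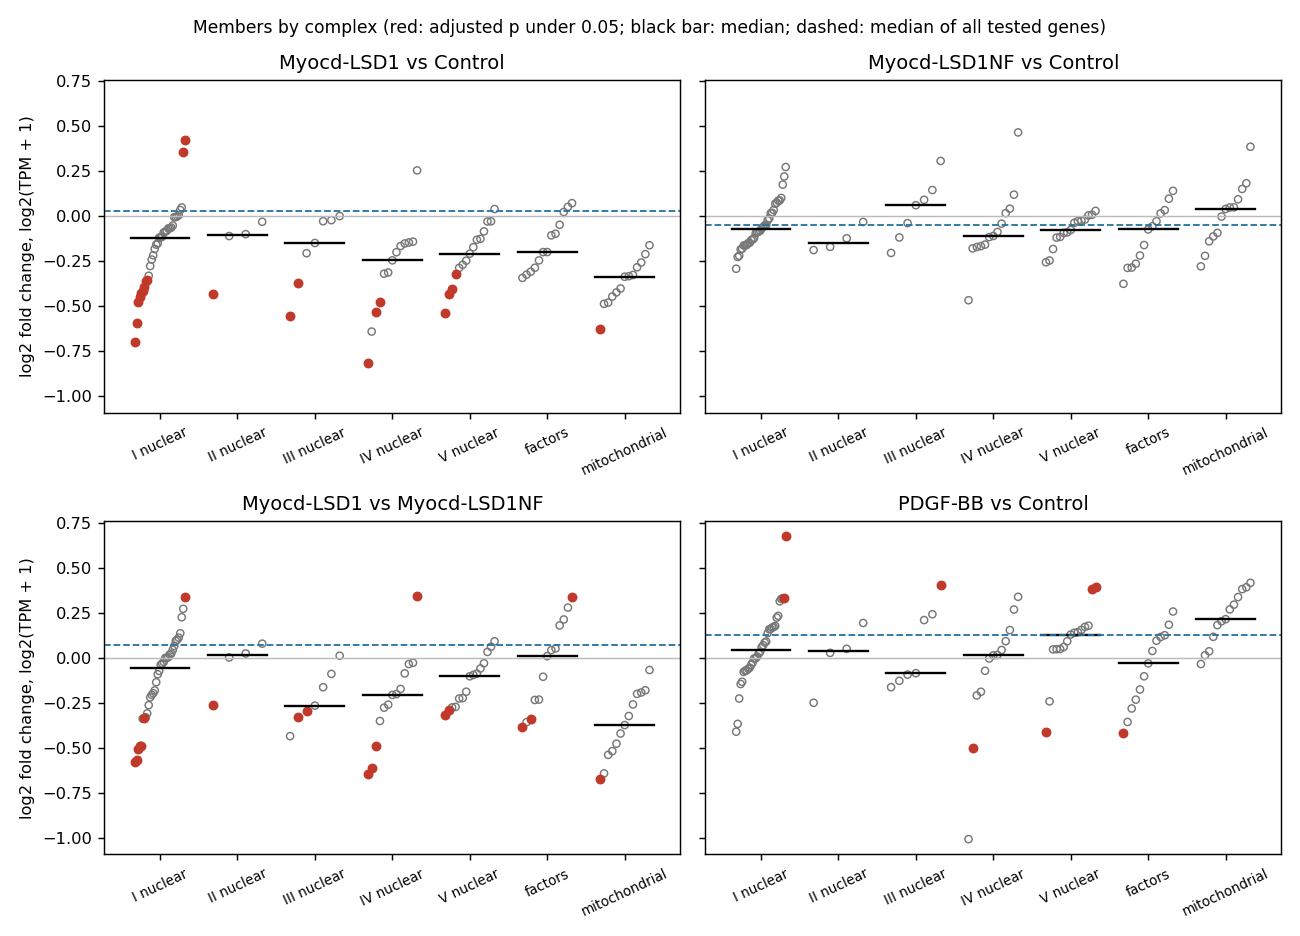
Log2 fold change on the log2(TPM + 1) scale of each of the 99 members in the 4 comparisons, by complex and genome; red points passed at an adjusted p under 0.05, open points did not, black bars are set medians and the dashed line is the median of all 12207 genes. Members against control in the Myocd-LSD1 line lie mostly below 0, no point is red for Myocd-LSD1NF against control, and in PDGF-BB the red points lie on both sides of 0.

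PDGF-BB for 24 h changed few members, and in both directions. Of the 99 members 5 rose, 3 fell and 91 did not pass, which is 8.08% against 27.7% of all genes (5.05% higher and 3.03% lower, against 19.2% and 8.5%). The median log2 fold change of all genes was itself 0.12, and nuclear members had a median of 0.05, below it, and mitochondrial members 0.21, above it. With median-of-ratios scaling, which set the all-gene median to -0.01, the nuclear median was -0.10, 2 members rose and 8 fell. Across all genes that scaling gave 13.8% higher and 14.3% lower. With array weights 10 members rose and 9 fell, beside 25.9% of all genes higher and 13.4% lower. The groups did not overlap for 21 members (21.2%, against 41.4% of all genes).

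Ndufa12, which also rose in the Myocd-LSD1 line, had 89.8, 77.3 and 83.8 TPM in PDGF-BB, above every control and every library of the other groups. Its log2 fold change against control was 0.67 ± 0.13 (adjusted p = 0.00168), the largest rise. Uqcrc1, a core protein of complex III, had 165, 181 and 171 TPM in PDGF-BB and 133, 139, 131 and 118 TPM in control. They did not overlap, and the log2 fold change was 0.40 ± 0.10 (adjusted p = 0.00822). Both rises held under each alternative tried.

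The catalytic subunits of ATP synthase rose together. Atp5a1 had 668, 706 and 723 TPM in PDGF-BB and 539, 529, 545 and 529.7 TPM in control (log2 fold change 0.38 ± 0.09, adjusted p = 0.00731). Atp5b had 1252, 1251 and 1349 TPM against 991, 971, 996 and 956 TPM (0.39 ± 0.10, adjusted p = 0.00822). In neither gene did the groups overlap. With median-of-ratios scaling Atp5a1 and Atp5b no longer passed, at adjusted p of 0.0515 and 0.0551.

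The 3 members that fell did so without overlap. Cox7a2l had 160.4, 149 and 164 TPM in PDGF-BB and 217, 194, 238 and 249.6 TPM in control (log2 fold change -0.50 ± 0.12, adjusted p = 0.00765), and this call held under each alternative. Atp5e had 204, 182 and 205 TPM, close to its level in the Myocd-LSD1 line (-0.41 ± 0.11, adjusted p = 0.0131). Without PDGF-BB 2 it did not pass (adjusted p = 0.0646). Atp5sl, known also as Dmac2 and needed for assembly of the complex I membrane arm in human cells, had 34.0, 35.3 and 29.2 TPM against 45.2, 45.7, 39.9 and 45.8 TPM (-0.42 ± 0.15, adjusted p = 0.044), and it did not pass without any single control or PDGF-BB library (up to 0.17). Its call was lost in 13 of 26 alternatives in all, among them no filter on low genes and TPM rescaled without mitochondrially encoded genes. In the Myocd-LSD1 line the log2 fold change of Cox7a2l against control was 0.25 ± 0.11 and did not pass.

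**Figure D5:**
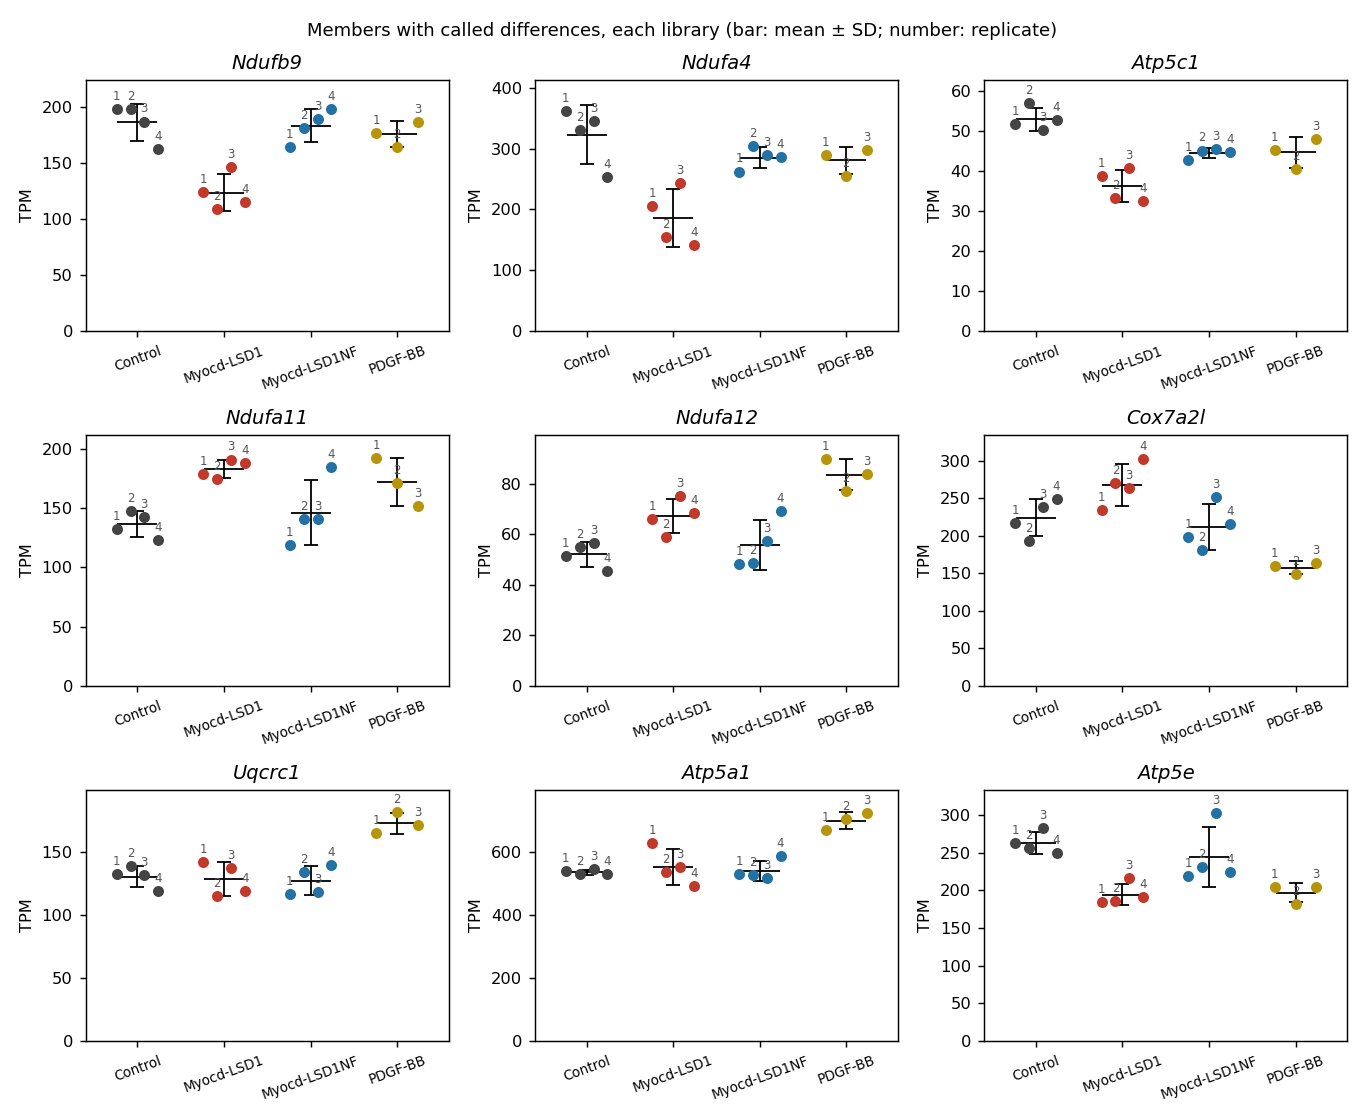
TPM of 9 members in each library, with the library number over each point and the mean ± SD as black bars; every axis starts at 0. Ndufb9, Ndufa4 and Atp5c1 are lowest in Myocd-LSD1, Ndufa12, Uqcrc1 and Atp5a1 are highest in PDGF-BB, and Atp5e is low in both.

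No mitochondrial gene passed with PDGF-BB, and the group was split by library 2. Mt-nd1 had 3724, 6849.6 and 2591 TPM and Mt-cyb, the cytochrome b of complex III, 6539, 11176 and 5082 TPM. Library 3 lay below the lowest control for Mt-nd3, Mt-nd5 and Mt-cox3. The mitochondrial median of 0.21 became -0.11 without PDGF-BB 2 and 0.51 without PDGF-BB 3. Nuclear members varied little in the same libraries, with a median coefficient of variation of 8.14% against 42.5% for mitochondrial genes.

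Over the 4 comparisons 36 members were called at least once and 63 never. Neither this count nor the overlap below was taken over all genes, of which 2.21% to 32.2% passed in a single comparison. No trait of the members is therefore read from them. Control is shared by 3 of the comparisons and Myocd-LSD1 by 2. Atp5e (lower) and Ndufa12 (higher) were the only members called against control both in the Myocd-LSD1 line and with PDGF-BB. Atp5e had log2 fold changes of -0.43 and -0.41 in these and Ndufa12 of 0.36 and 0.67.

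Genes that assemble the chain and supply it were read from 9 lists. In the Myocd-LSD1 line against control, 5 of 46 assembly factors fell and 2 rose (15.2% called, against 32.2% of all genes), and 11 of the 46 are members already counted above. Cox17, the copper chaperone of complex IV, had 63.1, 81.3, 62.5 and 48.4 TPM in control and 29.9 to 46.3 TPM in the 4 libraries of the line, without overlap (log2 fold change -0.74, adjusted p = 0.0026), and Higd2a, an assembly factor of the same complex, fell by 0.63. Of 20 carriers and channels 5 fell and 3 rose (40.0% called), with Tspo (0.63), a protein of the outer membrane, among the rises and Slc25a1 (-0.70), the citrate carrier, among the falls. Of 24 genes of the citric acid cycle and pyruvate entry 5 fell and 3 rose (33.3%), among them Suclg2 (-0.59), Mpc1 (-0.56), a subunit of the pyruvate carrier, and Idh2 (0.48).

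Of 73 mitochondrial ribosomal proteins 4 fell and 1 rose (6.85%), and of 27 translation and import genes 2 fell and 3 rose (18.5%), with the matrix protease Lonp1 higher by 0.74. Of 18 genes for cytochromes and coenzyme Q 1 fell (5.56%), of 29 genes for mitochondrial DNA and RNA 1 fell and 1 rose (6.90%), and of 11 antioxidant enzymes 2 rose (18.2%). Among 15 regulators of mitochondrial biogenesis 4 rose and 2 fell (40.0%). Hif1a, the hypoxia factor, had 88.9, 92.6, 82.4 and 86.2 TPM in control and 154, 186, 129 and 158 TPM in the line, without overlap (0.82, adjusted p = 4.7e-05). Prkaa2, a catalytic subunit of the energy sensor AMPK, fell by 1.27, from 5.43, 5.99, 5.46 and 6.93 TPM to 2.34, 1.22, 2.75 and 1.42 TPM. Nrf1, the factor that binds the NRF-1 core, rose by 0.41 ± 0.11 (adjusted p = 0.00928), while Tfam, the packaging factor of mitochondrial DNA, was at 0.05 ± 0.12 and did not pass.

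Against Myocd-LSD1NF the same lists gave 6 lower and 3 higher of the assembly factors, 3 and 4 of the carriers, 3 and 3 of the citric acid cycle genes and 4 and 8 of the ribosomal proteins. They gave 4 lower and 6 higher of the translation and import genes, 0 and 1 of the cytochrome and coenzyme Q genes, 0 and 5 of the DNA and RNA genes, 0 and 1 of the antioxidant enzymes and 2 and 4 of the regulators. The shares called ran from 5.56% to 40.0%, against 31.8% of all genes. Cox17 fell by 0.65. Between Myocd-LSD1NF and control only Cox14 (1.36, adjusted p = 0.042) and Mrps6 (-0.59, adjusted p = 0.046) passed over the 9 lists. Cox14, which helps start the synthesis of the catalytic subunit of complex IV, had 17.1, 16.1, 16.2 and 21.4 TPM in Myocd-LSD1NF and 7.08, 8.14, 11.2 and 2.03 TPM in control.

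With PDGF-BB most called genes of the lists were higher, beside an all-gene median of 0.12. Counts were 9 higher and 0 lower of 73 ribosomal proteins (12.3% called), 7 and 0 of 24 citric acid cycle genes (29.2%) and 7 and 2 of 20 carriers (45.0%). Translation and import genes gave 4 and 0 of 27 (14.8%), and antioxidant enzymes 4 and 0 of 11 (36.4%). They were 3 and 0 of the assembly factors, 1 and 1 of the cytochrome and coenzyme Q genes, 1 and 0 of the DNA and RNA genes and 2 and 1 of the regulators. Across all genes 27.7% were called, 19.2% higher and 8.5% lower. Fh, fumarase, had 97.0, 87.3 and 99.4 TPM against 60.3, 59.2, 62.0 and 52.2 TPM (0.69, adjusted p = 0.0012). Cyc1, cytochrome c1 of complex III, rose by 0.33 ± 0.11 (adjusted p = 0.0437) beside Uqcrc1, and Esrra, the estrogen-related receptor of energy genes, rose by 0.42 ± 0.14 (adjusted p = 0.0304). Slc25a25, a carrier of ATP and magnesium, fell by 1.89. Prkaa2, which fell in the Myocd-LSD1 line, also fell with PDGF-BB, to 1.73, 1.65 and 1.27 TPM. Its log2 fold change was -1.45, without overlap (limma, adjusted p = 0.0021).

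Smooth muscle markers moved with both conditions, as given above, and their part in the respiratory chain values was not tested. Summed fibroblast markers (5 genes) were 15.4 to 35.7 TPM in control, 6.61 to 15.1 in Myocd-LSD1, 5.23 to 8.99 in Myocd-LSD1NF and 25.9 to 56.7 in PDGF-BB. Summed endothelial markers (7 genes) were 3.46 to 6.88 TPM in control, 0.680 to 1.49 in Myocd-LSD1, 1.14 to 5.44 in Myocd-LSD1NF and 1.13 to 2.28 in PDGF-BB. Leukocyte markers (6 genes) summed to 0.340 to 0.840, 1.35 to 1.95, 0.380 to 0.590 and 1.05 to 1.22 TPM in the same order, and brown adipocyte markers (5 genes) to 1.97 to 6.07, 2.47 to 4.98, 1.43 to 4.01 and 8.06 to 11.8 TPM. Cardiac muscle markers (6 genes) summed to 8.05 to 20.8 TPM in control, 0.880 to 5.38 in Myocd-LSD1, 2.59 to 23.5 in Myocd-LSD1NF and 1.57 to 2.14 in PDGF-BB. Skeletal muscle markers (4 genes) summed to 1.88 to 3.68 TPM in control, 0.0800 to 0.500 in Myocd-LSD1NF and 0.0700 to 0.480 in PDGF-BB, and were listed at 0 in Myocd-LSD1. These sums thus differed between groups at low levels, while Cdh5, Ptprc and Ucp1 were at or near 0 in every group.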

How the data were processed

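Poly(A) RNA of cultured rat aortic SMC was sequenced with a stranded kit, per the labels' protocols. The authors deposited TPM per gene in a table with a column for each of the 15 libraries, while aligner, counter, build and annotation were not named in the labels or the table. The table's 4 columns of group means were not used, and 26 symbols had been turned into dates. TPM keeps no read depth, so no counting error is given.

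Values were tested as log2(TPM + 1), so fold changes of low genes are understated. Genes with at least 1 TPM in 3 libraries were fitted with limma 3.58.1 in R 4.3.3 (empirical Bayes with trend), with a mean for each of the 4 groups and no block, over all 15 libraries. Benjamini-Hochberg adjustment ran over all genes tested in each of 4 comparisons, and 0.05 was the threshold. The fit was also run on simulated data with independent noise in each gene and library. Links between libraries such as those seen here were not simulated, so no support is drawn from that run. Promoters were read from RefSeq with Python 3.11.15 and pandas 2.3.3.

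The members and lists were chosen with earlier results of these data known. The text names all mitochondrial members, called members (all up to 12 in a comparison, otherwise the 6 largest rises and falls), the highest member of each complex, tissue isoforms and up to 3 called genes per list and comparison. Ndufb10, Ndufs8, Ndufs5, Ndufv1, Ndufv2, Uqcr10, Atp5l, Atp5g3, Atp5d, Sdhaf1, Nrf1 and Tfam, where outside this rule, were named after their values were seen. A few genes that the rule would name are not reported here, although the counts include them. Alternatives changed the pseudocount, filter, scaling, weights, block and libraries.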

Additional observations from a re-analysis of the deposited data

Results flagged for a closer look

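Of 168 sets of 4 values tested (a gene or summed complex in a group), 9 had a library far from the other three by Dixon's criterion, and chance alone flags about 1 in 20 such sets. Myocd-LSD1 4 had 9249 TPM of Mt-atp6, where the rest of its group had 6509 to 6688, and 12003 TPM summed over both mitochondrial genes of complex V, against 7966 to 8423. Myocd-LSD1 3 had 669 TPM of Cox4i1, against 599.8 to 608. Myocd-LSD1NF 3 had 284 TPM of Uqcrh, against 209 to 221, and 303 TPM of Atp5e, against 219 to 231. Cox6b2 had 0.620 TPM in Myocd-LSD1NF 4 and was listed at 0 in the rest of the group, and Cox7a1 had 0.850 TPM in Myocd-LSD1NF 2, against 0.360 to 0.400. Control 3 had 39.9 TPM of Atp5sl, against 45.2 to 45.8, and 584 TPM of Atp5g2, against 446 to 467.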

How the results depend on the processing

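Over 26 alternatives no called member changed direction. Calls that held under all of them numbered 7 of 22 for Myocd-LSD1 against control, 2 of 20 for Myocd-LSD1 against Myocd-LSD1NF and 3 of 8 for PDGF-BB. In the same order, with Myocd-LSD1NF against control second, array weights gave 50, 4, 31 and 19 called members. Of all genes 44.7%, 7.53%, 41.1% and 39.3% passed with them. Fitting only the compared groups gave 10 for Myocd-LSD1 against Myocd-LSD1NF, beside 23.7% of all genes. Without Myocd-LSD1 libraries 2 and 4, 9 members passed against control and 4 against Myocd-LSD1NF, beside 24.4% and 24.6% of all genes. Median-of-ratios scaling moved the nuclear median with PDGF-BB to -0.10. Leaving out 1 library at a time gave 12 to 26 calls for Myocd-LSD1 against control, 0 to 2 for Myocd-LSD1NF against control, 7 to 29 for Myocd-LSD1 against Myocd-LSD1NF and 6 to 10 for PDGF-BB. The shares of all genes were 26.6% to 33.6%, 0.893% to 2.56%, 25.8% to 33.1% and 17.5% to 29.4%. The call of Mt-nd6 against control was lost in 12 of the 26, with an adjusted p (limma) of up to 0.107. The causes were not tested. With a replicate block the counts were 25, 0, 25 and 11, beside 34.8%, 2.80%, 34.7% and 29.2% of all genes. Libraries of different groups with the same number correlated at -0.23 to 0.58 (median 0.10) in their deviations from the group means. Those with different numbers correlated at -0.32 to 0.32 (median -0.03). Same-number pairs thus reached higher values, and a shared factor is not settled by these ranges. The labels name no pairing, so the main fit had no block.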

Other observations

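Library 3 had the lowest mitochondrial sum in all 4 groups, at 51142 TPM in control, 45845 in Myocd-LSD1, 52125 in Myocd-LSD1NF and 53083 in PDGF-BB. The nuclear sum was highest in library 3 of control (15260.0 TPM), Myocd-LSD1 (14010.2 TPM) and Myocd-LSD1NF (14933 TPM), and in library 1 of PDGF-BB (15131 TPM). The labels do not say whether the numbers mark a shared day or batch.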
